A study of Mus musculus with 12 samples.

Results

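Shank2, Mir22hg, Adra1a, Fbxo31, Aatk, Sphk2, Dirc2, Vps37b, Htt and Cda are 10 of the 22381 genes with a value in RNA sequencing of 12 mouse liver libraries. They were selected on the difference in these same log2 values between curcumin-treated and untreated livers of mice on a high-fat high-sugar diet (HFHS), and several also differed with calcitriol. All 10 were among the 12637 genes expressed highly enough to be tested. The mice were female C57BL/6, an inbred strain, and the labels give all of them 14 weeks of the diet, which leads to steatohepatitis, an inflamed fatty liver. The 4 groups hold 3 libraries each: HFHS without treatment, HFHS with liposomes carrying curcumin (a plant polyphenol), HFHS with liposomes carrying calcitriol (the active form of vitamin D), and a group titled CNT. Mice of the curcumin and calcitriol groups had intravenous injections in week 12 and again in week 13, and their livers were collected 2 weeks after the first. The labels of CNT carry the same diet text, and what sets it apart is not given in these sources. No group given empty liposomes was analysed here, so curcumin or calcitriol cannot be told apart from the injections and the liposomes. Whether replicates come from separate animals is not given either, so a p-value measures the spread between these samples. Values are deposited log2 levels with no counts, and library depth is unknown. Levels are not scaled by gene length and are compared between groups, not between genes.

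The 10 genes do not form a single pathway. Shank2 encodes a scaffold protein that ties receptors and transporters to actin at synapses and in epithelial cells. Mir22hg is the long non-coding host transcript of miR-22, a microRNA abundant in liver, and a microRNA lowers the stability and translation of mRNAs that pair with its seed. Adra1a encodes a noradrenaline and adrenaline receptor that acts through Gq, a route by which catecholamines raise calcium and release glucose in hepatocytes. Aatk and Fbxo31 encode a membrane-anchored kinase of endosome traffic and the substrate-binding subunit of a ubiquitin ligase, and Sphk2 and Cda encode enzymes of sphingolipid and pyrimidine metabolism. Dirc2, Vps37b and Htt encode a lysosomal membrane transporter, a subunit of the ESCRT-I sorting complex and huntingtin, a scaffold of vesicle transport and autophagy.

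Both microRNA hosts are shown first, because the host transcripts were measured and the mature microRNAs were not. The miR-22 hairpin (GRCm38 chromosome 11, 75463716 to 75463810, plus strand) lies in exon 2 of both annotated Mir22hg transcripts. The miR-338 hairpin (chromosome 11, 120014765 to 120014862, minus strand) lies in intron 7 of the Aatk transcripts with 14 exons, and the Mir3065 hairpin lies on the opposite strand there. In the sequences from RefSeq (GRCm38.p6), capitals mark the seed, bases 2 to 8, and in the hairpin they mark both mature arms.
miR-22-5p: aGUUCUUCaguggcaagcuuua
miR-22-3p: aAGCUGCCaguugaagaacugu
miR-338-5p: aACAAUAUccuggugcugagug
miR-338-3p: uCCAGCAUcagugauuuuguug
miR-22 hairpin: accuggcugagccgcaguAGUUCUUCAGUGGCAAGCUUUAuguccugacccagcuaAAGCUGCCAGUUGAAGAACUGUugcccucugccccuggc
The 5 mature sequences of these 3 hairpins carry 5 different seeds. Mir22, Mir338 and Mir3065 themselves are listed at 0 or are absent among the annotated rows, so the levels of Mir22hg and Aatk are levels of host RNA.

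Mir22hg (ENSMUSG00000085148, chromosome 11, 75461539 to 75466676, plus strand) was low in untreated HFHS livers and higher in the other 3 groups. It stood at 7.94, 8.14 and 7.83 in HFHS replicates 1 to 3, at 8.59, 8.57 and 8.70 with curcumin, at 8.85, 9.17 and 8.86 with calcitriol, and at 8.92, 8.76 and 8.72 in CNT. All 3 HFHS libraries lay below the other 9, the curcumin libraries lay between HFHS and CNT, and the calcitriol and CNT libraries overlapped. The difference from HFHS was 0.65 ± 0.10 (log2 ± SE) with curcumin and 0.99 ± 0.10 with calcitriol, and HFHS minus CNT was -0.83 ± 0.10. These comparisons share the HFHS libraries, as do those of every gene described here. They hold the values that chose the genes, so differences from HFHS are given with their SE and without a p-value.

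**Figure D1:**
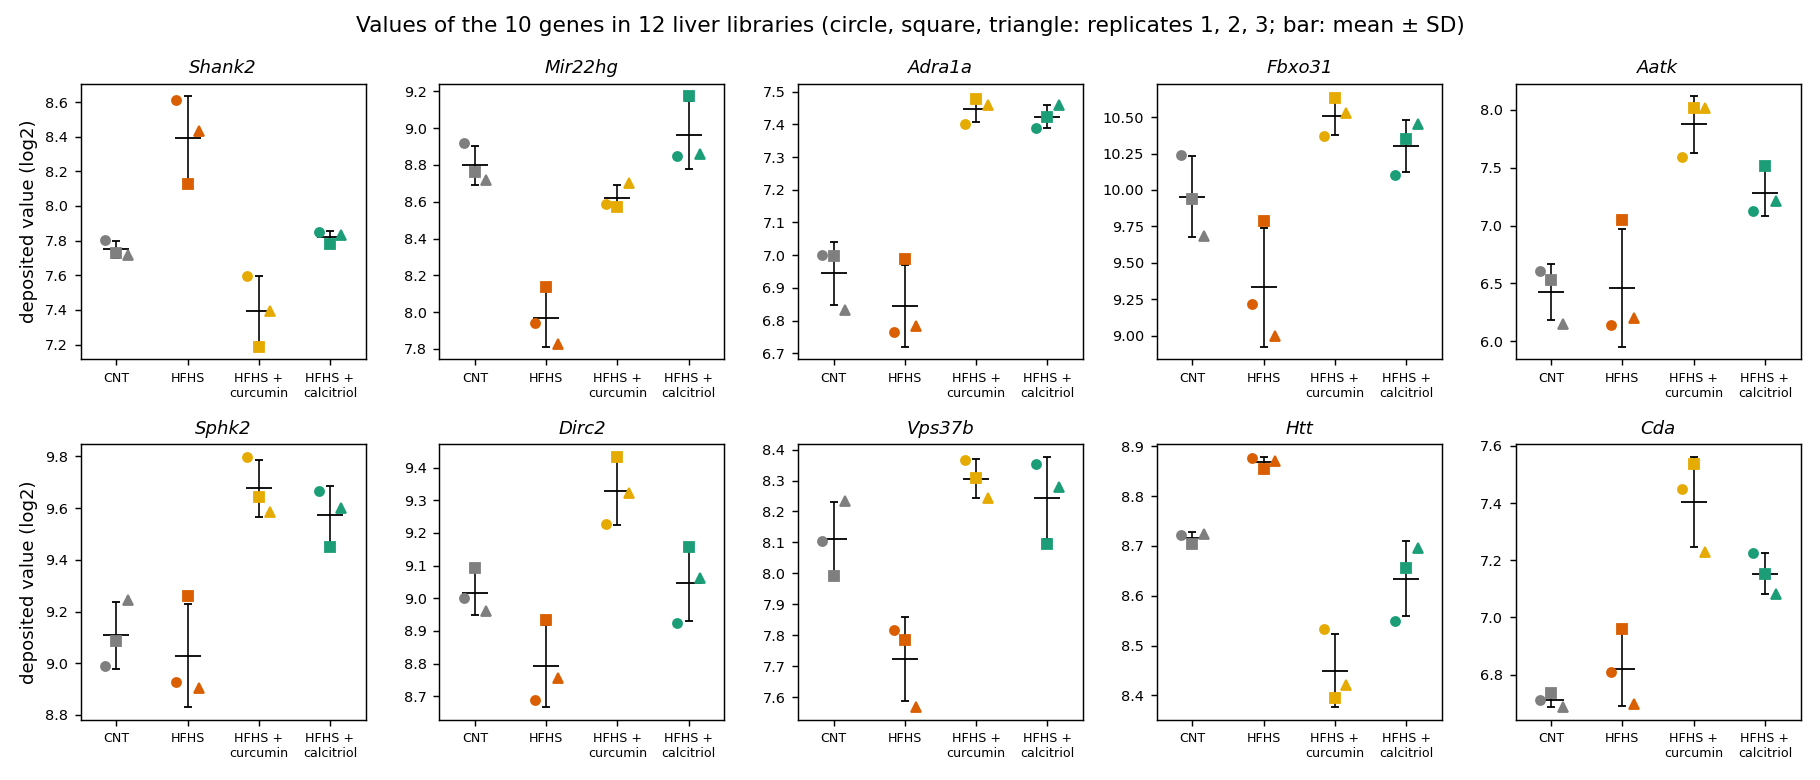
Deposited log2 value of each of the 10 genes (vertical axis, own scale per gene) in CNT, HFHS, HFHS with curcumin and HFHS with calcitriol, with a symbol per replicate and bars for the mean ± SD (n = 3). Mir22hg and Vps37b were lowest and Shank2 and Htt highest in HFHS, while Adra1a, Aatk, Sphk2 and Cda were highest in the treated groups and near each other in HFHS and CNT.

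Mir22hg shares 206 of its 1924 exon bases (10.7%) with Tlcd2, a protein-coding gene on the same strand, because 1 annotated Tlcd2 transcript begins in the Mir22hg exons, including the one with the hairpin. Tlcd2 stood at 9.52, 10.62 and 9.65 in HFHS, at 10.20 to 10.53 with curcumin and at 9.59 to 10.37 with calcitriol, and these ranges overlapped. Its difference from HFHS was 0.44 ± 0.26 with curcumin (adjusted p = 0.309, limma) and 0.05 ± 0.26 with calcitriol (adjusted p = 0.942). Wdr81, the nearest tested gene on the other side, 6821 bases away on the opposite strand, had 0.27 ± 0.10 with curcumin and 0.28 ± 0.10 with calcitriol (adjusted p = 0.134 and 0.132). How reads in the shared exons were assigned is not given in the sources used here.

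**Figure D2:**
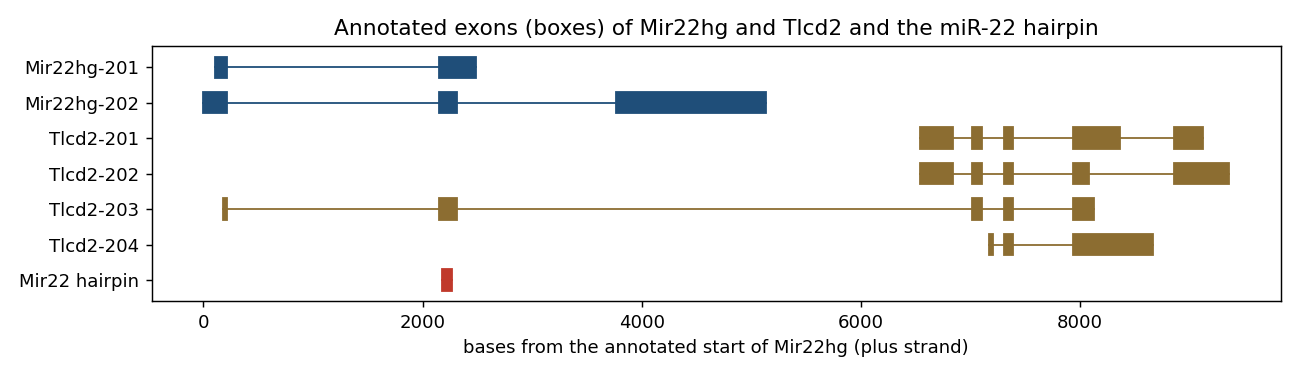
Annotated exons (boxes) of Mir22hg and Tlcd2 transcripts and the miR-22 hairpin, along the plus strand in bases from the annotated start of Mir22hg. The hairpin, 2177 to 2271 bases from the start, lies in the exon that begins at 2154, which both Mir22hg transcripts and 1 Tlcd2 transcript use.

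Genes reported in the literature as miR-22 targets were listed to show whether their mRNAs differed between the same groups. With curcumin, 0 of 16 passed an adjusted p under 0.05 in limma, and 5 had an unadjusted p under 0.05. Over all 12637 genes tested, 3123 (24.7%) had an unadjusted p under 0.05 with curcumin and 2693 with calcitriol. At an adjusted p under 0.05 limma called 0.301% of all genes with curcumin, 2.21% with calcitriol and 11.9% in HFHS against CNT. Counts in this list and in those below are to be set against these. With curcumin, 0 calls in a short list are near the share of all genes and say little about the list. With calcitriol, 2 of 16 fell: the cell cycle kinase gene Cdk6 (-0.44 ± 0.10, adjusted p = 0.0447) and the transcription factor gene Tcf7 (-0.36 ± 0.08, adjusted p = 0.0461). The list's median difference was -0.06 with curcumin and 0.12 with calcitriol, against 0.00 for all genes in both. In HFHS against CNT, where Mir22hg was lower, Cdk6 (0.43 ± 0.10) and the hormone gene Fgf21 (1.04 ± 0.17, adjusted p = 0.00951) rose. The oestrogen receptor gene Esr1 (-0.60 ± 0.14, adjusted p = 0.0228) and the deacetylase gene Sirt1 (-0.33 ± 0.08) fell. Ppara, a lipid-sensing receptor gene and reported target, had 0.13 ± 0.24 with curcumin and 0.36 ± 0.24 with calcitriol (adjusted p = 0.767 and 0.436).

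The 7-base match to the miR-22-3p seed, GGCAGCT, was searched in the longest annotated 3′ UTR of each gene, because 3 of the other genes hold it. It occurs in 1899 of 12054 tested genes with a 3′ UTR (15.8%). Aatk and Vps37b have 1 match each and Htt has 2, and Shank2, Adra1a, Fbxo31, Sphk2, Dirc2 and Cda have 0. The match stands in capitals within 28 bases, for Htt at its first match.
Aatk: agggtagtgtgGGCAGCTctctgttgca
Vps37b: aggccctgctgGGCAGCTgtgctgttca
Htt: ggctgaaagaaGGCAGCTgctggggcct
In the treated groups, where Mir22hg was higher than in HFHS, Aatk and Vps37b were higher and Htt was lower. A match describes the letters of the UTR and is not a measured site.

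Shank2 (ENSMUSG00000037541, chromosome 7, 144001928 to 144424494, plus strand) was the member with the largest decrease with curcumin. It stood at 8.61, 8.13 and 8.43 in HFHS, at 7.59, 7.19 and 7.40 with curcumin, at 7.85, 7.78 and 7.83 with calcitriol, and at 7.80, 7.73 and 7.72 in CNT. All HFHS libraries lay above the other 9 and all curcumin libraries below, with calcitriol and CNT overlapping between them. Curcumin minus HFHS was -0.998 ± 0.118, calcitriol minus HFHS was -0.57 ± 0.12 and HFHS minus CNT was 0.64 ± 0.12, while curcumin minus CNT was -0.36 ± 0.12. In these whole livers, fewer cells of a type and less RNA per cell cannot be told apart.

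Genes of the Shank2 scaffold were listed to set its partners beside it. Of 16 tested genes of the scaffold list, 0 passed in limma with either treatment, where 0.301% (curcumin) and 2.21% (calcitriol) of all genes did. An unadjusted p under 0.05 was found for 6 with curcumin and 5 with calcitriol. Shank3, the paralog that was tested, had -0.38 ± 0.19 with curcumin (adjusted p = 0.232) and 0.12 ± 0.19 with calcitriol (adjusted p = 0.760). In HFHS against CNT the scaffold partner genes Dlgap1 (-0.71 ± 0.14, adjusted p = 0.0146), Homer2 (-0.70 ± 0.19) and Dlg3 (-0.30 ± 0.08) fell and the exchange factor gene Arhgef7 rose (0.26 ± 0.08, adjusted p = 0.0490). Cttn, which encodes the actin-binding partner cortactin and lies 11238 bases beyond Shank2, had -0.20 ± 0.07 and -0.22 ± 0.07 with curcumin and calcitriol (adjusted p = 0.120 and 0.102). Dhcr7, the last enzyme of cholesterol synthesis and the nearest tested gene on the other side at 153517 bases, fell with calcitriol (-0.70 ± 0.11, adjusted p = 0.0205) and had -0.38 ± 0.11 with curcumin (adjusted p = 0.0900).

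Htt (ENSMUSG00000029104, chromosome 5, 34761740 to 34912534, plus strand) was the other member that was highest in HFHS, with smaller differences and narrow groups. It stood at 8.88, 8.86 and 8.87 in HFHS, at 8.53, 8.39 and 8.42 with curcumin, at 8.55, 8.655 and 8.70 with calcitriol, and at 8.72, 8.70 and 8.72 in CNT. The order from low to high was curcumin, calcitriol, CNT and HFHS, and no neighbouring groups overlapped. The gap between the highest calcitriol library and the lowest CNT library was within the rounding of these values. The difference from HFHS was -0.42 ± 0.06 with curcumin and -0.23 ± 0.06 with calcitriol, and HFHS minus CNT was 0.15 ± 0.06. Of 16 tested genes for huntingtin partners, 0 passed with curcumin or calcitriol (6 and 1 at an unadjusted p under 0.05, limma). Hip1 and Hap1, whose products bind huntingtin, had -0.41 ± 0.15 and -0.18 ± 0.13 with curcumin (adjusted p = 0.126 and 0.425).

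Vps37b (ENSMUSG00000066278, chromosome 5, 124004641 to 124032270, minus strand) followed the Mir22hg pattern, with HFHS below all other libraries. It stood at 7.82, 7.79 and 7.57 in HFHS, at 8.37, 8.31 and 8.24 with curcumin, at 8.35, 8.10 and 8.28 with calcitriol, and at 8.10, 7.99 and 8.23 in CNT. The calcitriol range overlapped those of curcumin and CNT, while the lowest curcumin library lay just above the highest CNT library. Curcumin minus HFHS was 0.58 ± 0.09, calcitriol minus HFHS 0.52 ± 0.09 and HFHS minus CNT -0.39 ± 0.09. Vps37b shares 918 exon bases (32.9%) with Hip1r on the opposite strand, and whether counting used strand is not given in the sources used here. Hip1r itself had -0.08 ± 0.19 with curcumin and 0.31 ± 0.19 with calcitriol (adjusted p = 0.825 and 0.380). The other ESCRT genes did not pass in any of these comparisons, with 0 of 25 called and 2 at an unadjusted p under 0.05 with either treatment. Tsg101, which encodes the core of ESCRT-I, had 0.08 ± 0.08 with curcumin, and the paralogs Vps37a and Vps37c had 0.08 ± 0.09 and -0.21 ± 0.12.

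Dirc2 (ENSMUSG00000022848, chromosome 16, 35694062 to 35769356, minus strand; Slc49a4 in RefSeq) was high in the curcumin group. It stood at 8.69, 8.93 and 8.76 in HFHS, at 9.23, 9.43 and 9.32 with curcumin, at 8.925, 9.16 and 9.06 with calcitriol, and at 9.0, 9.09 and 8.96 in CNT. All curcumin libraries lay above the other 9, and calcitriol overlapped both HFHS and CNT. Against HFHS it was higher by 0.54 ± 0.08 with curcumin and 0.26 ± 0.08 with calcitriol, and curcumin minus CNT was 0.31 ± 0.08. Of 24 genes for lysosomal transporters and the SLC49 family, 0 passed with curcumin or calcitriol (4 each at an unadjusted p under 0.05, limma). With the replicate number as a block the lysosomal transporter genes Pqlc2 (0.39 log2 higher) and Slc15a3 (-0.55) passed with curcumin (adjusted p = 0.0474 for both). The family members Flvcr1, Flvcr2 and Mfsd7a had 0.02 ± 0.10, 0.27 ± 0.16 and -0.13 ± 0.09 with curcumin. The transporter genes Mfsd12 (0.34 ± 0.10, adjusted p = 0.0464) and Slc15a3 (0.60 ± 0.16, adjusted p = 0.0348) rose in HFHS against CNT.

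Fbxo31 (ENSMUSG00000052934, chromosome 8, 121549440 to 121578806, minus strand) was higher in both treated groups than in HFHS. It stood at 9.22, 9.79 and 8.998 in HFHS, at 10.37, 10.63 and 10.53 with curcumin, at 10.10, 10.35 and 10.45 with calcitriol, and at 10.24, 9.94 and 9.68 in CNT. The curcumin libraries lay above all of HFHS and CNT, while CNT overlapped HFHS on one side and calcitriol on the other. It was 1.18 ± 0.19 above HFHS with curcumin and 0.97 ± 0.19 above HFHS with calcitriol, and HFHS minus CNT was -0.62 ± 0.19.

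Most genes of the SCF ligase that Fbxo31 belongs to did not pass. With curcumin 0 of 28 tested genes were called (5 at an unadjusted p under 0.05, limma), and with calcitriol the F-box gene Fbxo9 rose (0.37 ± 0.08, adjusted p = 0.0368) and Ccnd1 fell. Ccnd1 encodes cyclin D1, a reported substrate of FBXO31. Its mRNA had -1.14 ± 0.24 with curcumin (adjusted p = 0.0541) and fell by 1.74 ± 0.24 with calcitriol (adjusted p = 0.0163), and calcitriol against CNT gave -1.34 ± 0.24 (adjusted p = 0.0192). With the replicate number as a block, Ccnd1 (adjusted p = 0.0474) and Fbxo8 (0.30 log2 higher, adjusted p = 0.0468) passed with curcumin. The core subunit genes Cul1, Rbx1 and Skp1a had 0.03 ± 0.06, 0.08 ± 0.10 and 0.20 ± 0.10 with curcumin. The F-box genes Fbxo30 (-0.40 ± 0.10), Fbxo8 (-0.26 ± 0.07), Fbxo9 (-0.34 ± 0.08) and Fbxl20 (-0.53 ± 0.16) fell in HFHS against CNT. Map1lc3b, the nearest tested gene beyond Fbxo31 at 11554 bases and the gene of an autophagosome protein, had 0.40 ± 0.08 with curcumin (adjusted p = 0.0510, and 0.0449 with the block).

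Adra1a (ENSMUSG00000045875, chromosome 14, 66635251 to 66771168, plus strand) was high in both treated groups and similar in HFHS and CNT. It stood at 6.76, 6.99 and 6.78 in HFHS, at 7.40, 7.48 and 7.46 with curcumin, at 7.39, 7.42 and 7.46 with calcitriol, and at 7.0, 6.998 and 6.83 in CNT. The 6 treated libraries lay above the 6 others, and the ranges overlapped within each of these pairs of groups. Curcumin minus HFHS was 0.60 ± 0.08, calcitriol minus HFHS 0.58 ± 0.08 and curcumin minus calcitriol 0.02 ± 0.08. Adra1b, the paralog, had 0.22 ± 0.13 with curcumin and 0.31 ± 0.13 with calcitriol (adjusted p = 0.314 and 0.199). Of 22 tested adrenergic and Gq genes, 0 passed with curcumin (5 at an unadjusted p under 0.05, limma), and with calcitriol Itpr1, the gene of a calcium release channel, rose (0.50 ± 0.10, adjusted p = 0.0313). Plcb2, a phospholipase C gene, rose (0.49 ± 0.13) and Itpr1 (-0.33 ± 0.10) and Itpr2 (-0.46 ± 0.10) fell in HFHS against CNT.

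The long intergenic RNA Gm10032, 13311 bases beyond Adra1a on the same strand and the nearest tested gene there, was also high in the treated groups. It stood at 3.98, 4.63 and 3.92 in HFHS, at 5.18, 5.22 and 5.15 with curcumin, at 4.86, 4.64 and 4.89 with calcitriol, and at 4.12, 4.27 and 4.04 in CNT. It rose with curcumin (1.01 ± 0.16, adjusted p = 0.0384, limma), had 0.62 ± 0.16 with calcitriol (adjusted p = 0.0623), and was higher in calcitriol than in CNT (0.65 ± 0.16, adjusted p = 0.0429). On the other side of Adra1a the nearest tested gene, Trim35, lies 323826 bases away.

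Sphk2 (ENSMUSG00000057342, chromosome 7, 45709467 to 45718002, minus strand), which makes sphingosine 1-phosphate, had the same pattern. It stood at 8.93, 9.26 and 8.90 in HFHS, at 9.80, 9.64 and 9.59 with curcumin, at 9.67, 9.45 and 9.60 with calcitriol, and at 8.99, 9.09 and 9.24 in CNT. Again the 6 treated libraries lay above the 6 others. Sphk2 was 0.65 ± 0.11 above HFHS with curcumin and 0.54 ± 0.11 above it with calcitriol. Of 29 tested sphingolipid genes 0 passed with curcumin or calcitriol (8 and 4 at an unadjusted p under 0.05, limma), Sphk1 was not tested, and Sgpl1, the lyase that degrades sphingosine 1-phosphate, had -0.10 ± 0.06 and -0.01 ± 0.06. Smpd3, a neutral sphingomyelinase gene, rose in HFHS (1.09 ± 0.17, adjusted p = 0.00932) and in calcitriol (0.93 ± 0.17, adjusted p = 0.0189) against CNT.

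Sphk2 shares exon bases on opposite strands with both of its neighbours, 539 bases (13.0%) with Dbp, a clock output gene, and 373 bases (8.97%) with Rpl18. Dbp stood at 10.21, 10.51 and 10.67 in HFHS, at 10.13, 10.40 and 10.20 with curcumin, at 10.03, 10.27 and 10.20 with calcitriol and at 10.96, 11.11 and 10.91 in CNT. Dbp fell in HFHS (-0.53 ± 0.12, adjusted p = 0.0211) and in calcitriol (-0.83 ± 0.12, adjusted p = 0.00521) against CNT, and had -0.22 ± 0.12 and -0.30 ± 0.12 with curcumin and calcitriol against HFHS. Rpl18 had 0.12 ± 0.07 and -0.07 ± 0.07 in those comparisons (adjusted p = 0.292 and 0.573). Neither neighbour was higher in both treated groups as Sphk2 was. Among 17 tested clock genes 0 passed with curcumin or calcitriol (5 and 6 at an unadjusted p under 0.05, limma), and 5 fell in HFHS and 3 in calcitriol against CNT, among them Bhlhe40 (-0.61 ± 0.13 and -0.66 ± 0.13). With the replicate block Cry1 passed with curcumin (0.97 log2 higher, adjusted p = 0.0474, from 0.0510), as did Clock and Arntl in calcitriol against CNT, both higher with calcitriol (0.35 and 0.41, adjusted p = 0.0454 and 0.0495).

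**Figure D3:**
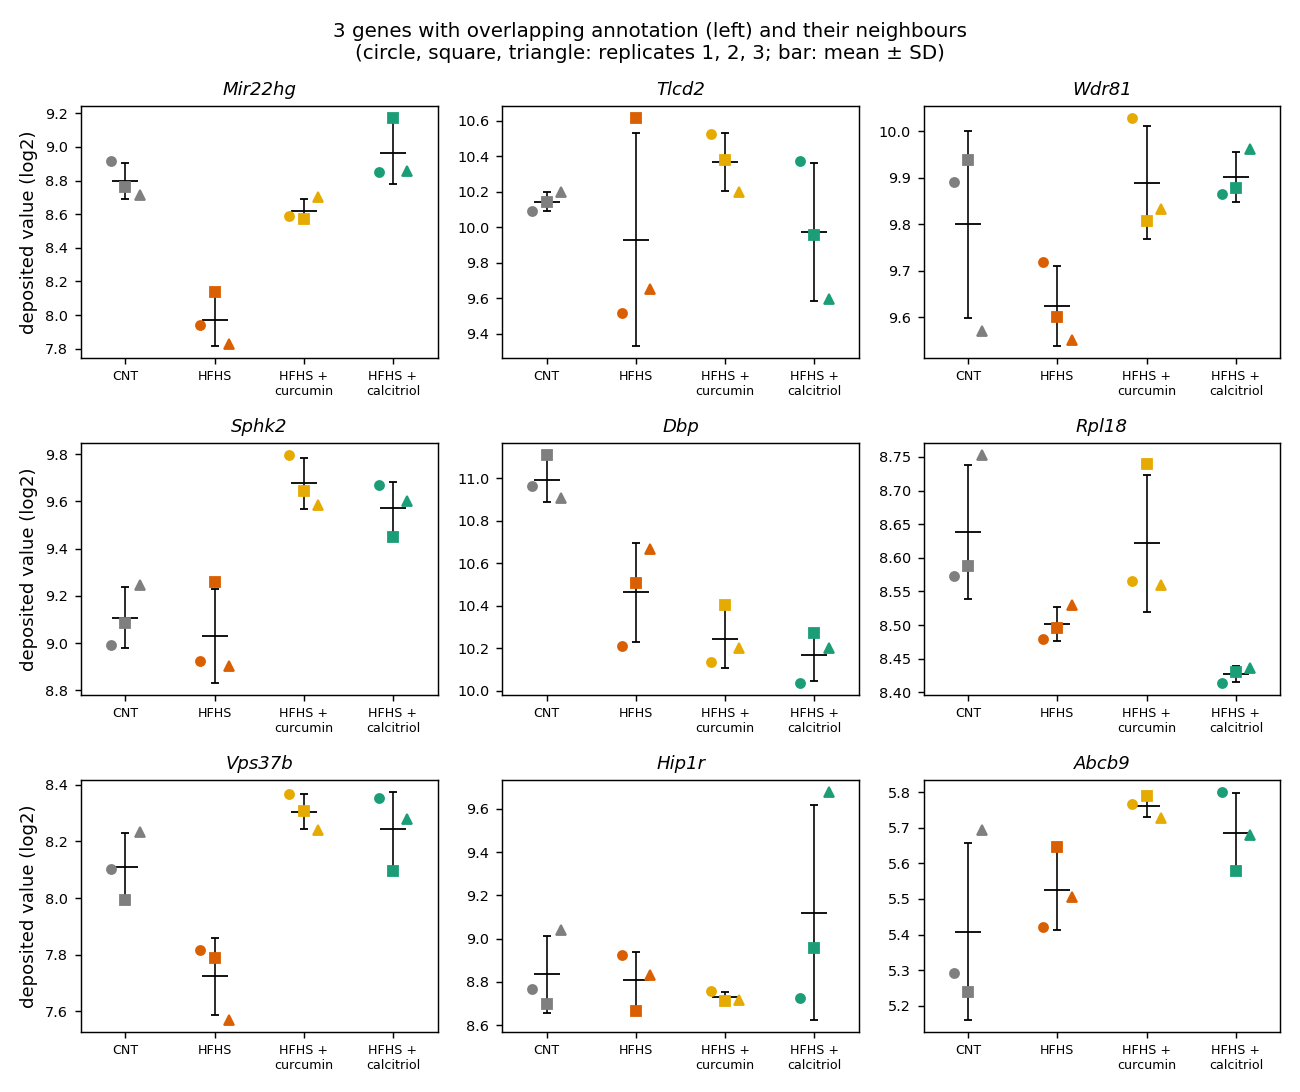
Deposited log2 values of Mir22hg, Sphk2 and Vps37b (left) beside 2 neighbouring genes each, with a symbol per replicate and bars for the mean ± SD (n = 3). Tlcd2, Dbp, Rpl18 and Hip1r share exon bases with the gene on the left, and their group order differed from it.

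Aatk (ENSMUSG00000025375, chromosome 11, 120007313 to 120047167, minus strand) had the largest difference with curcumin of the 10 genes. It stood at 6.14, 7.05 and 6.20 in HFHS, at 7.59, 8.01 and 8.02 with curcumin, at 7.12, 7.52 and 7.21 with calcitriol, and at 6.61, 6.53 and 6.15 in CNT. The curcumin libraries were highest, the calcitriol libraries came next without overlap, and HFHS and CNT overlapped, with HFHS replicate 2 close to the calcitriol range. Curcumin minus HFHS was 1.41 ± 0.23, calcitriol minus HFHS 0.82 ± 0.23 and curcumin minus calcitriol 0.59 ± 0.23. Lmtk2, the paralog that was tested, had -0.09 ± 0.07 with curcumin and 0.02 ± 0.07 with calcitriol. Of 8 tested kinase partners 0 passed with curcumin or calcitriol (1 and 2 at an unadjusted p under 0.05, limma), and the ion transporter gene Slc12a2 rose in calcitriol against CNT (0.35 ± 0.09, adjusted p = 0.0462, and 0.0600 with the replicate block). Baiap2, whose annotated end lies 530 bases from that of Aatk, had 0.21 ± 0.13 with curcumin (adjusted p = 0.333).

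Cda (ENSMUSG00000028755, chromosome 4, 138338424 to 138367992, minus strand), cytidine deaminase of pyrimidine salvage, showed the same order of groups as Aatk. It stood at 6.81, 6.96 and 6.70 in HFHS, at 7.45, 7.54 and 7.23 with curcumin, at 7.23, 7.15 and 7.08 with calcitriol, and at 6.71, 6.73 and 6.69 in CNT. Both treated groups lay above HFHS and CNT, and the lowest curcumin library and the highest calcitriol library were equal to 2 decimals. Curcumin minus HFHS was 0.58 ± 0.09, calcitriol minus HFHS 0.33 ± 0.09 and curcumin minus calcitriol 0.25 ± 0.09. Of 28 tested pyrimidine genes 0 passed with curcumin (10 at an unadjusted p under 0.05, limma, where 24.7% of all genes had one). Ctps2, a CTP synthase gene, fell with calcitriol (-0.46 ± 0.10, adjusted p = 0.0453). Uck1, a uridine-cytidine kinase gene, had 0.53 ± 0.15 with curcumin (adjusted p = 0.0827). Umps, the last enzyme of UMP synthesis, fell in HFHS (-0.34 ± 0.06, adjusted p = 0.0115) and in calcitriol (-0.46 ± 0.06, adjusted p = 0.00327) against CNT.

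Side by side, the groups did not overlap for 10 of 10 genes in curcumin against HFHS (8 higher, 2 lower), where 23.6% of all genes tested did not overlap, and nothing is read from a count that the choice of genes fixed. In calcitriol against HFHS 9 of 10 did not overlap (24.4% of all genes), with Dirc2 the exception. In HFHS against CNT 5 of 10 did not overlap (26.9% of all genes): Shank2 and Htt were higher in HFHS and Mir22hg, Dirc2 and Vps37b lower. In curcumin against CNT 10 of 10 did not overlap (25.6% of all genes). Every comparison of this paragraph holds HFHS or curcumin libraries, whose values chose the genes, so nothing is read from these counts of the 10 genes either. In curcumin against calcitriol 6 of 10 did not overlap (28.7% of all genes): Aatk, Dirc2 and Cda were higher and Shank2, Mir22hg and Htt lower with curcumin. In that comparison limma called 0% of all genes, with 1873 genes at an unadjusted p under 0.05 and a lowest adjusted p of 0.142. With only these 2 groups in the fit it called 214 genes (53 higher and 161 lower with curcumin, lowest adjusted p 0.000784), without HFHS replicates 1 and 3 it called 10, and in the other alternatives 0.

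**Figure D4:**
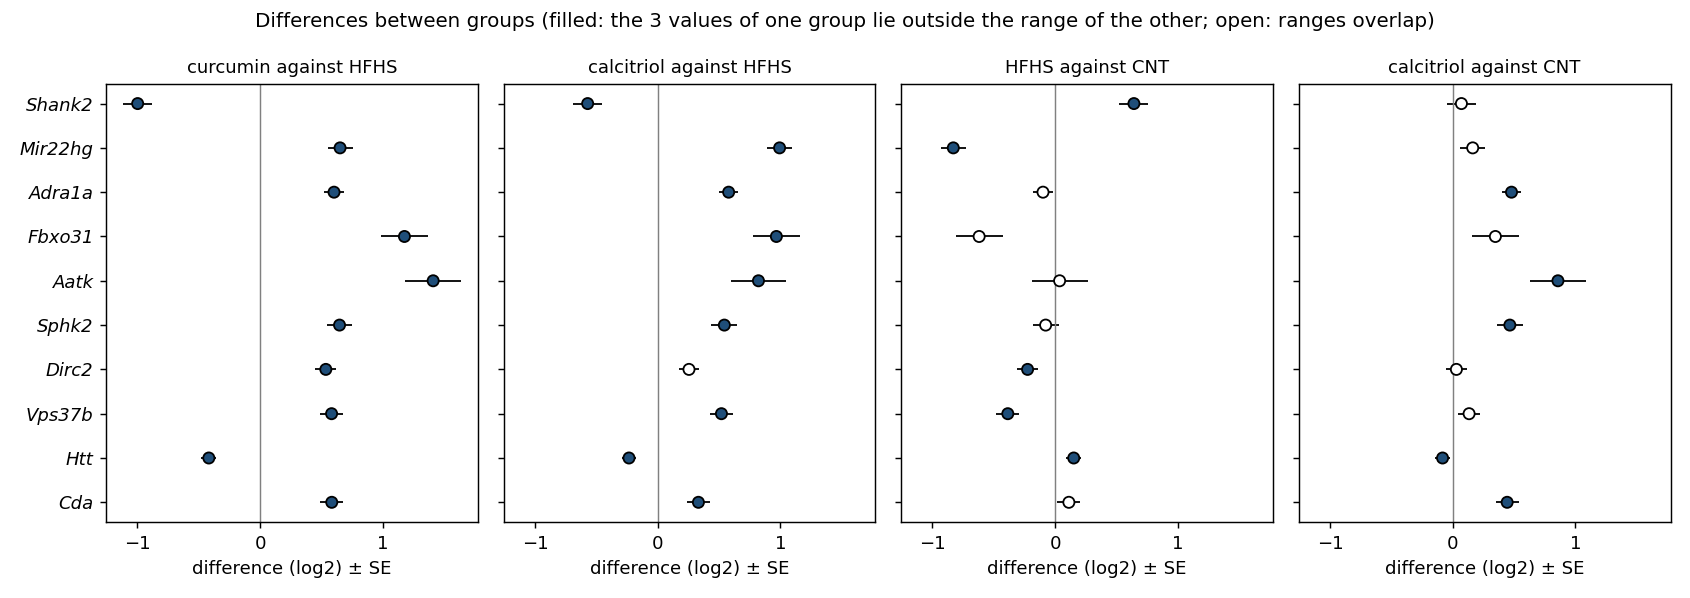
Difference in log2 value (horizontal axis, ± SE from limma) for each of the 10 genes in 4 comparisons, filled where the 3 libraries of one group lie outside the range of the other. In HFHS against CNT 5 genes are filled, and in calcitriol against CNT the points for Adra1a, Aatk, Sphk2, Htt and Cda are filled, with Htt on the negative side.

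Calcitriol against CNT is the comparison whose differences use no library of curcumin against HFHS. Its p-values do use them, because the spread was estimated over all 12 libraries. The calcitriol libraries may also have had a part in choosing several genes, so the counts here are not independent of that choice. Adra1a (0.48 ± 0.08, adjusted p = 0.0115), Cda (0.44 ± 0.09, adjusted p = 0.0280) and Sphk2 (0.47 ± 0.11, adjusted p = 0.0358) were higher in calcitriol, 3 of 10 genes, where 4.04% of all genes were called. The libraries did not overlap for these 3, Aatk and Htt, 5 of 10 genes against 32.3% of all genes. Aatk had 0.86 ± 0.23 (adjusted p = 0.0594), with all 3 calcitriol libraries above CNT, and passed in 4 of 19 alternatives: with the replicate number as a block (adjusted p = 0.0307), with only these 2 groups (0.0226), without HFHS replicates 1 and 3 (0.0104) and without HFHS replicate 2 (0.00869). Over all 19 its adjusted p was 0.0087 to 0.16. The adjusted p was 0.296 for Fbxo31 (0.35 ± 0.19), 0.360 for Mir22hg (0.16 ± 0.10), 0.410 for Vps37b (0.13 ± 0.09), 0.433 for Htt (-0.08 ± 0.06), 0.756 for Shank2 (0.07 ± 0.12) and 0.862 for Dirc2 (0.03 ± 0.08). The 3 genes that passed were among those that stood close together in HFHS and CNT, which the choice of genes by a shift from HFHS makes likely. Over 19 alternatives the differences stayed at 0.42 to 0.51 for Adra1a, 0.39 to 0.48 for Cda and 0.41 to 0.53 for Sphk2, while the adjusted p passed 0.05 in several. For Adra1a it reached 0.0554 without calcitriol replicate 3 (0.0521 without replicate 2). For Cda it reached 0.0876 without calcitriol replicate 1, and it was 0.0852, 0.0720, 0.0599 and 0.0839 without calcitriol replicate 2 or 3 or CNT replicate 1 or 2, and 0.0615 under quantile normalization. For Sphk2 it reached 0.124 without calcitriol replicate 3, and it was 0.107, 0.0690, 0.0928, 0.120, 0.0507 and 0.0519 without calcitriol replicate 1 or 2, CNT replicate 1 or 2, or curcumin replicate 2 or 3, where leaving out a curcumin library does not alter the difference itself.

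HFHS replicate 2 lay nearest of the 3 HFHS libraries to the curcumin mean for 9 of 10 genes, against 57.3% of all genes tested. It lay nearest to the CNT mean for 7 of 10, against 54.8% of all genes. Without HFHS replicates 1 and 3, which leaves 1 HFHS library, curcumin minus HFHS was 0.83 for Aatk, 0.72 for Fbxo31 and 0.42 for Sphk2, smaller by over 1.5 times. Calcitriol minus HFHS was then -0.31 for Shank2, 0.51 for Fbxo31, 0.24 for Aatk, 0.31 for Sphk2, 0.11 for Dirc2 and 0.20 for Cda. The direction of all 10 genes in both treatment comparisons was the same in all 19 alternatives, which was largely fixed in advance. Another filter, fit or block leaves the difference itself unchanged. Leaving out libraries cannot turn a sign where the groups do not overlap. HFHS minus CNT without replicates 1 and 3 was 0.38 for Shank2, -0.17 for Fbxo31, -0.08 for Dirc2 and 0.62 for Aatk. For Adra1a, Aatk, Sphk2 and Cda HFHS minus CNT is near 0 with all libraries (-0.10 ± 0.08, 0.04 ± 0.23, -0.08 ± 0.11 and 0.11 ± 0.09). The sign for Aatk turned under quantile normalization (-0.11), and the difference for Cda was 0.0021.

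Markers of other cells moved with the same groups. The summed level (log2 of summed linear values) of 5 erythroid markers out of 6, with Ahsp at 0, was 11.819 to 12.706 in HFHS and 11.685 to 12.74 in CNT. It was 13.064 to 13.186 with curcumin and 13.087 to 13.39 with calcitriol, so both treated groups lay above the others, as for Adra1a, Sphk2, Aatk and Cda. The 6 stellate markers reached 13.557 and 13.436 in HFHS replicates 1 and 3 and stood at 12.598 in replicate 2, and at 12.301 to 12.805 in the 9 other libraries. Cholangiocyte markers (6 of 6) were 10.146 to 11.785 in HFHS and 9.492 to 10.537 elsewhere, a sum led by Spp1 (up to 11.68), with Krt19, Krt7, Epcam and Sox9 at no more than 6.532 in any library. Adipocyte markers (6 of 6) reached 9.27 in HFHS replicate 3 against at most 5.33 in the other 11 libraries, led by Cfd (up to 9.178), with Adipoq at no more than 4.233. In calcitriol against CNT the 6 macrophage markers (13.228 to 13.552 against 12.555 to 12.937), the 6 endothelial markers (11.924 to 12.038 against 11.243 to 11.866), the stellate markers (12.59 to 12.694 against 12.301 to 12.582) and the erythroid markers were higher without overlap, beside Adra1a, Cda and Sphk2. The part of these markers in the results was not tested. Hepatocyte markers were all tested, with Alb, the albumin gene, at 19.649 to 20.718. Of 6 neuron markers, listed because Shank2, Aatk and Htt are well known from brain, Snap25 was at 0 and only Syt1 and Rbfox3 were tested.

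By profile over the 12 libraries, each standardised to mean 0 and SD 1, the closest genes were at root mean square distances of 0.230 to 0.359, where the median over all genes was 1.40 to 1.44. Wnt5b was closest to Sphk2 (0.230), Llgl2 to Vps37b (0.235), Tmem143 to Aatk (0.267), Slc25a42 to Fbxo31 (0.277), Elmod3 to Adra1a (0.306) and Arhgef18 to Mir22hg (0.310). Arhgap1 was closest to Shank2 (0.324), Phf14 to Dirc2 (0.354) and Nup205 to Htt (0.359). For Cda the closest was Gm10032 (0.337), the RNA beside Adra1a, which was also among the 3 closest genes for Aatk (0.311) and for Sphk2 (0.363). Among the 10 genes themselves the smallest distance was 0.396, between Adra1a and Aatk, and Shank2 lay 0.458 from Htt. The other 8 genes lay 1.75 to 1.97 from these 2, which differ from them in direction. These distances describe 12 shared libraries, and the genes were found by them.

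Across 13 lists around the 10 genes, without the genes themselves, 248 distinct genes were tested. Limma called 0 with curcumin, where it called 0.301% of all genes, 38 genes, or 242 with the replicate block (62 of the 248 had an unadjusted p under 0.05, or 25%, against 24.7% of all genes), and 2 rose and 4 fell with calcitriol (2.42%, against 2.21% of all genes). In HFHS against CNT 13 rose and 22 fell (14.1%, against 11.9% of all genes), and in calcitriol against CNT 5 rose and 6 fell (4.44%). Host genes of other small RNAs (14 tested, as Mir22hg) had 0 calls with either treatment (5 with curcumin and 4 with calcitriol at an unadjusted p under 0.05). Dleu2, the host of miR-15a and miR-16-1, fell in HFHS (-0.69 ± 0.10, adjusted p = 0.00514) and in calcitriol (-0.41 ± 0.10, adjusted p = 0.0407) against CNT. Of 5 tested nuclear-retained RNAs, among them Malat1 and Neat1, 0 passed in these comparisons in limma, with 0 at an unadjusted p under 0.05 except 1 in HFHS against CNT. The list counts moved both ways. Without HFHS replicate 2 all 13 lists had calls with curcumin, where 3207 of all 12637 genes were called, so calls in every list say little about the lists. Among them were 10 of 28 pyrimidine, 9 of 29 sphingolipid, 8 of 22 adrenergic, 6 of 16 scaffold and 6 of 17 clock genes. The replicate block gave 2 each in the SCF, lysosomal and clock lists. In each list with calls the count fell to 0 under at least 1 of 19 alternatives, except the pyrimidine and clock lists in calcitriol against CNT, which kept at least 1.

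Promoter windows around the start site (RefSeq, GRCm38.p6) were read for Mir22hg, Fbxo31, Aatk, Sphk2, Dirc2, Htt and Cda, and not for Shank2, Adra1a and Vps37b. All 7 hold the GC box GGGCGG on either strand, which 35.7% of 32851 promoters hold, and their GC content was 54.7% for Mir22hg and 65.7% to 70.3% for the others, against a median of 52.7%. The cAMP response element TGACGTCA, held by 1.79% of promoters, was found in Sphk2 and Htt, and both windows are shown, with the element in capitals, because these genes differ in direction with treatment.
Sphk2: tggtgcacgggTGACGTCAcatgagcgcga
Htt: ctccgccggcaTGACGTCAcgggacgcact
The Sphk2 window is chr7:45717981-45718010 on the minus strand, and that of Htt is chr5:34761715-34761744 on the plus strand. Sphk2 was higher and Htt lower with both treatments than in HFHS. The antioxidant response core TGACNNNGC (12.4% of promoters) was found in Fbxo31 and Dirc2, the metal response element TGCGCNC (15.4%) in Fbxo31 and Aatk and its form TGCACNC (12.6%) in Sphk2. The E-box CACGTG (7.15%) was found in Dirc2, and the D-box TTATGNAA (3.38%) and the direct repeat bound by the vitamin D receptor (0.00609%) in none of the 7. These are matches of letters on both strands and no binding was measured.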

How the data were processed

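RNA from whole livers was sequenced in 12 libraries, grouped by their titles into 4 groups of 3. Each deposited table holds 1 log2 value per gene, as computed by the authors. The submitters' processing notes list the aligner STAR 2.4.0d, the package DESeq2 1.8.1 and the build GRCm38 and give no order of steps. The transformation is not given in the sources used here. The values, -3.632 to 20.718, have the pattern of a regularized log2, so differences of weakly expressed genes are probably understated. The 23411 genes at 0 in all 12 libraries were left out, and 12637 genes with at least 3.32 (log2 of 10) in at least 3 libraries were tested. Symbols and coordinates came from GENCODE M21.

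Group means were fitted over all 12 libraries with limma 3.58.1 in R 4.3.3 (empirical Bayes with trend and robust estimation, two-sided, Benjamini-Hochberg over all genes tested, threshold 0.05), and the fit was tested on simulated data. Every adjusted p in the text is from limma. Alternatives were another filter, fit, scaling or block, and libraries left out. Deviations from the group means of same-numbered libraries correlated at over 0.1 in 3 of 3 pairs for curcumin and HFHS (0.160 to 0.321). The same held for calcitriol and CNT (0.205 to 0.372). The other 4 pairs of groups had 0 or 1 of 3, with -0.383 to -0.023 for curcumin and CNT. Differently numbered libraries were not compared and deviations within a group sum to 0, so this does not establish that the numbers pair libraries. The labels give no pairing. For curcumin against HFHS and calcitriol against CNT the block, fitted over all 12 libraries, is given as an alternative beside named results that it changes. Of the 12 libraries, median SD between replicates was 0.0827 to 0.124, and no 2 libraries were alike (median absolute difference 0.0844 to 0.221).

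The 10 genes and the gene lists were chosen with earlier results of these data known, and are no independent evidence of a direction. The text names the 10 genes, genes that overlap or neighbour them, up to 4 first-listed paralogs or partners and up to 3 called genes of a list with the smallest p, and genes closest in profile. Arhgef7, Fbxo8, Fbxl20, Plcb2 and Tcf7, and the genes named for the replicate block, fall outside this rule and were named after their values were seen. Sequences came from RefSeq tables of GRCm38.p6 and from GENCODE transcripts. Some genes of the lists are not reported here.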

Additional observations from a re-analysis of the deposited data

How the results depend on the processing

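Over 19 alternatives the direction of all 10 genes against HFHS was kept with both treatments, which the choice of genes largely fixed. The number of genes called among all genes tested moved widely. For curcumin against HFHS 38 calls became 74 with no filter, 120 with a stricter filter, 162 with quantile normalization, 242 with the replicate block, and 0 with only the 2 groups in the fit or without HFHS replicates 1 and 3. For calcitriol against HFHS 279 became 0 with only the 2 groups, 427 with quantile normalization and 4 without HFHS replicates 1 and 3. For HFHS against CNT 1505 became 13 and 68 with the first and last of these, and for calcitriol against CNT 511 became 328 with no filter and 1187 without HFHS replicates 1 and 3. Leaving out 1 library gave 0 (such as HFHS replicate 1) to 3207, 4 (calcitriol replicate 2) to 2194, 135 (CNT replicate 2) to 3717, and 73 (calcitriol replicate 3) to 1142 calls in the 4 comparisons, each highest without HFHS replicate 2. The cause was not tested.

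HFHS minus CNT was near 0 for Adra1a, Aatk, Sphk2 and Cda with all libraries. It changed sign for Adra1a (0.0434) and Sphk2 (0.153) without HFHS replicates 1 and 3, and for Aatk with quantile normalization (-0.111). With 1 library left out it ranged from -0.256 to 0.197 for Aatk, and calcitriol minus CNT ranged from -0.0241 to 0.0912 for Dirc2. The replicate block gave 280, 1862 and 627 calls in the other 3 comparisons, and in curcumin against HFHS and calcitriol against CNT it is given beside the named genes that it changes. In calcitriol against HFHS, Cdk6, Tcf7 and Ctps2 had an adjusted p of 0.0511, 0.0510 and 0.0527 in limma with the block. In HFHS against CNT, Arhgef7 and Itpr1 had 0.0606 and 0.0548 with the block, while some listed genes not named for that comparison passed only with it. A lone HFHS library was taken to have the spread of the other groups. Depth is unknown, so 3 libraries a group set the precision.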
